A study of Homo sapiens with 8 samples.

Results

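Midkine, the secreted growth factor encoded by MDK, and 5 cell surface heparan sulfate proteoglycans were examined in DLD1 cells, a human colorectal cancer line. The 6 genes (MDK, the syndecans SDC1, SDC2, SDC3 and SDC4, and the glypican GPC1) were taken from the 58302 genes of the count table. MDK was chosen by its fall, which was among the 5 largest in these same libraries, and the proteoglycans were added by family with earlier results of these data known. The change of MDK is therefore given as a description without a test, and the adjusted p values of the proteoglycans are no independent evidence. Counts were found for 5 of the 6 genes, and the same 5 were among the 14133 genes tested.

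The OE-WT cells carried lentiviral constructs for wild-type TRMT6/61A, the enzyme complex that places the m1A mark on tRNA, and their genotype and treatment are labelled TRMT6/TRMT61A overexpression. The CTRL cells received the empty vector and are labelled as genotype WT with the treatment Control. All cells were stably transduced and shared the DLD1 background, and all were washed in cycloheximide and lysed, after which the lysate was cleared by centrifugation before RNA extraction. Each group had 2 libraries, named replicate 1 and 2. Whether the stable cells were clones or pools is not given in the sources used here. The design text describes the genes as overexpressed respectively, while the sample labels name both together.

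Heparan sulfate proteoglycans are core proteins that carry long sulfated sugar chains attached to serines beside glycines. Syndecans span the membrane, and glypicans are held in it by a lipid anchor. Their chains bind growth factors, among them midkine, a small basic protein that is abundant in embryonic tissue and in many carcinomas. The chains present such ligands to signalling receptors, and the syndecan ectodomains can be shed by proteases. Syndecan 1 is the main syndecan of epithelia, including the lining of the colon.

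The libraries held between 10327498 and 12379671 counts. TRMT6 stood at 210.7 and 180.9 CPM (counts scaled to the library total, with TMM factors) in OE-WT and at 52.6 and 55.4 CPM in CTRL. TRMT61A stood at 137.5 and 130.4 CPM against 58.9 and 56.8 CPM, so both targeted genes were higher in the libraries labelled as overexpressing them. All 8 colon epithelium markers were detected, and their summed level was 11580 and 11870 CPM in OE-WT against 10480 and 10250 CPM in CTRL. Of these, 3 were lower (CDH1, CDH17 and KRT20) and 2 were higher (KRT8 and KRT18) in OE-WT. Markers of other cell types were near 0: the 6 fibroblast markers summed to between 2.27 and 3.22 CPM with 3 at 0 (COL1A2, COL3A1 and DCN), the 3 endothelial markers to between 0.59 and 2.33 CPM with CDH5 at 0, and the 4 leukocyte markers to between 0.233 and 0.393 CPM with CD3E at 0. The endothelial sum did not overlap between groups and was lower in OE-WT, through VWF with 5 and 6 counts against 30 and 14.

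MDK was 4.00-fold lower in OE-WT than in CTRL. The gene lies at chr11:46380756-46383837 on the forward strand (GRCh38, ENSG00000110492). OE-WT replicate 1 held 67 MDK counts and replicate 2 held 75, or 6.75 and 7.37 CPM. CTRL replicate 1 held 416 and replicate 2 held 298, or 32.3 and 24.2 CPM. Both OE-WT libraries lay far below both CTRL libraries, and the CTRL libraries differed from each other more than the OE-WT libraries did. The group means were 7.06 ± 0.439 CPM in OE-WT and 28.3 ± 5.76 CPM in CTRL (SD, n = 2 each), and the log2 fold change was -2.001 with a standard error of 0.157. In bulk RNA, fewer cells that express a gene and less of its mRNA per cell cannot be told apart. Among genes with a mean of at least 50 counts, an adjusted p below 0.05 and groups that did not overlap, MDK held rank 5 in the order of falls. Just inside stood NPTX2, a neuronal pentraxin, at -2.04 on the log2 scale (standard error 0.138). Just outside stood COCH, a secreted matrix protein, at -1.94 (standard error 0.157), within the standard error of MDK. PTN (pleiotrophin), the other member of the midkine family, had 0 counts in all 4 libraries.

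**Figure D1:**
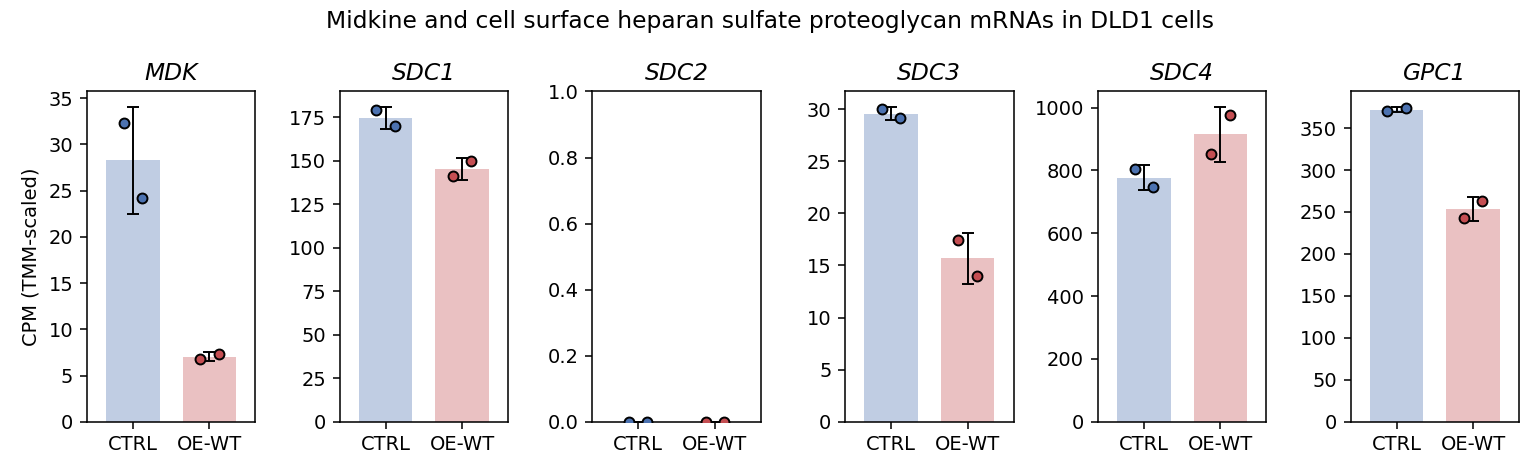
Level of each of the 6 genes in CPM (TMM-scaled, linear axis from 0, own scale for each gene), with a point for each library, bars for group means and error bars for the SD (n = 2). MDK, SDC1, SDC3 and GPC1 lay lower in both OE-WT libraries, SDC4 lay higher, and SDC2 was at 0 in every library.

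Among the syndecans, SDC1 and SDC3 were lower in OE-WT, SDC4 was slightly higher, and SDC2 was not detected. SDC3, a syndecan best known from the nervous system (ENSG00000162512, chr1:30869466-30908758, reverse strand), had 173 and 142 counts in OE-WT (17.4 and 14.0 CPM) and 386 and 359 counts in CTRL (30.0 and 29.1 CPM). Its groups did not overlap, with OE-WT at 0.530 of the CTRL level. The log2 fold change of SDC3 was -0.92 (standard error 0.117, adjusted p = 9.5e-06 by edgeR's quasi-likelihood test over all genes tested). SDC1, the epithelial syndecan (ENSG00000115884, chr2:20200797-20225433, reverse strand), had 1400 and 1525 counts in OE-WT (141 and 149.9 CPM) and 2301 and 2095 counts in CTRL (178.9 and 170.1 CPM). The 4 libraries of SDC1 did not overlap between groups, but the difference was modest, at 0.834 of the CTRL level. Its log2 fold change was -0.26 (standard error 0.067, edgeR adjusted p = 0.00702). The call for SDC1 was lost without OE-WT replicate 1 (-0.22, adjusted p = 0.0661), without CTRL replicate 1 (-0.23, adjusted p = 0.0655), and after removal of a GC trend (-0.15, adjusted p = 0.111), all in edgeR.

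SDC4, the widely expressed syndecan of focal adhesions (ENSG00000124145, chr20:45325288-45348424, reverse strand), had 8473 and 9932 counts in OE-WT and 10349 and 9219 counts in CTRL. Scaled, it stood at 853.6 and 976.1 CPM in OE-WT and at 804.4 and 748.3 CPM in CTRL. Both OE-WT libraries lay above both CTRL libraries. The gap between the OE-WT libraries was wider than that between the nearest libraries of the groups (853.6 and 804.4 CPM). The OE-WT level was 1.18 times the CTRL level, with a log2 fold change of 0.24 (standard error 0.072, edgeR adjusted p = 0.0231). The call ended without OE-WT replicate 2 (0.13, edgeR adjusted p = 0.346), without CTRL replicate 2 (0.19, edgeR adjusted p = 0.115), with library size as the only scaling (0.15, edgeR adjusted p = 0.275) and in DESeq2 (0.24, adjusted p = 0.0555), and it also ended in the blocked fit (0.23, edgeR adjusted p = 0.0545) and with a looser count filter (0.22, edgeR adjusted p = 0.0572). The sign of SDC4 was the same in all of these. SDC2, the syndecan of mesenchymal cells (ENSG00000169439), had 0 counts in all 4 libraries, which allows up to 3 counts or between 0.233 and 0.302 CPM per library, for counting error only.

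GPC1, the one glypican of the set, fell in OE-WT. The gene lies at chr2:240435663-240468076 on the forward strand (ENSG00000063660). It had 2414 and 2680 counts in OE-WT (243.2 and 263.4 CPM) and 4757 and 4607 counts in CTRL (369.8 and 374.0 CPM). The CTRL libraries were nearly level with each other, and both stood well above the OE-WT libraries. The OE-WT level was 0.681 of the CTRL level, with a log2 fold change of -0.55 (standard error 0.065, edgeR adjusted p = 3.4e-06). With 2 libraries per group, an exact two-sided permutation test of any single value could not go below p = 0.333.

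Of the 5 genes measured, 4 were lower and 1 was higher at an adjusted p below 0.05 in edgeR, with a median log2 fold change of -0.55. Over all 14133 genes tested, 11.6% were lower and 9.44% were higher, with a median of 0.01. Since earlier results of this contrast were known when the set was drawn up, nothing is read from its count. The choice of MDK by its fall also placed it below a log2 fold change of -1, which the other 4 did not reach, and nothing is read from this. Of all genes tested, 2.25% lay below that value at an unadjusted p below 0.05. The proteins of all 6 genes begin with a hydrophobic segment, as secreted and membrane proteins do. Of the 1992 genes tested whose protein has such a segment, 33.4% were lower and 5.17% were higher in OE-WT. Their median log2 fold change was -0.21, against 0.04 for the 9634 genes without the segment, and 11 of the 1992 lay at or below the value of MDK. The share of the set that was lower therefore stands beside a high share in its protein class, and the part of that class in the result was not tested.

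Per length of annotated exon, SDC4 was by far the most abundant of the 6 mRNAs. In CTRL the levels in CPM per kb of exon were 297.1 ± 15.2 for SDC4, 57.0 ± 0.455 for GPC1, 48.3 ± 1.72 for SDC1, 12.95 ± 2.64 for MDK and 4.19 ± 0.0864 for SDC3 (SD, n = 2), and every neighbour pair in this order was free of overlap. In OE-WT they were 350.1 ± 33.2 for SDC4, 40.3 ± 1.73 for SDC1, 38.8 ± 2.19 for GPC1, 3.24 ± 0.201 for MDK and 2.22 ± 0.348 for SDC3. SDC1 and GPC1 overlapped there across libraries, while the other neighbours in the order did not overlap. Within a library, the ratio of SDC1 to GPC1 was 1.047 and 1.027 in OE-WT and 0.873 and 0.821 in CTRL. The place of GPC1 depended on the length used: with the longest annotated transcript it stood at 68.1 CPM per kb in OE-WT, above SDC1 at 44.2 CPM per kb.

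The summed level of the 5 proteoglycan mRNAs was 405.5 and 457.4 CPM per kb in OE-WT and 418.3 and 394.9 CPM per kb in CTRL, so the groups overlapped. Its make-up shifted toward SDC4. SDC4 held 80.6% and 81.7% of the sum in OE-WT and 73.6% and 72.5% in CTRL. GPC1 held 9.196% and 8.829% against 13.6% and 14.5%, and SDC1 held 9.63% and 9.069% against 11.8% and 11.9%. SDC3 held 0.608% and 0.432% against 1.015% and 1.044%. None of these shares overlapped between groups, and the share of SDC2 was 0 in every library. The shares are parts of the same sum, so a larger SDC4 share makes the others smaller and they are not separate results. With the longest transcript as the length, the share of SDC4 was 74.6% and 75.9% in OE-WT and 66.0% and 64.6% in CTRL.

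**Figure D2:**
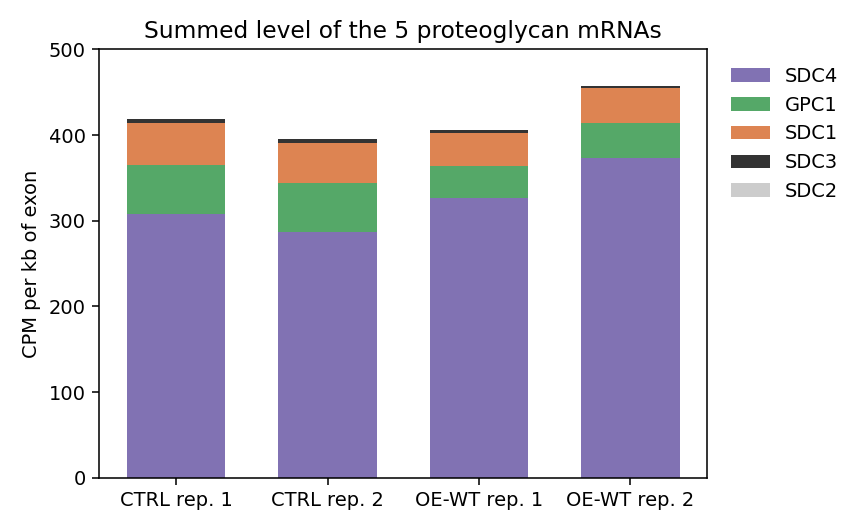
Summed level of the 5 proteoglycan mRNAs in each library, in CPM per kb of annotated exon, stacked by gene (linear axis from 0). The column heights overlapped between groups (394.9 to 418.3 in CTRL, 405.5 to 457.4 in OE-WT), and the SDC4 portion was larger in both OE-WT libraries.

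Ratios within a library do not depend on the scaling between libraries. The length-scaled ratio of SDC4 to GPC1 was 8.76 and 9.25 in OE-WT and 5.43 and 4.99 in CTRL. SDC4 to SDC1 was 8.37 and 9.005 against 6.22 and 6.08, and SDC4 to SDC3 was 132.4 and 189.1 against 72.5 and 69.4. All 3 ratios were higher in both OE-WT libraries, so the mRNAs of the proteoglycans did not change equally. The ratio of GPC1 to MDK, a receptor core protein to its ligand, was 12.1 and 11.9 in OE-WT and 3.83 and 5.17 in CTRL. SDC4 to MDK was 105.6 and 110.6 against 20.8 and 25.8. MDK mRNA was thus scarcer relative to each of these cores in OE-WT. Because MDK was chosen by its fall, any core that fell less, or rose, had to show a higher ratio to MDK. Nothing is therefore read from the ratios to MDK.

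The promoters of 4 proteoglycan genes are shown because these genes did not move one way: SDC1, SDC3 and GPC1 were lower and SDC4 was higher. The sequences are from RefSeq (GRCh38.p14), end at the base before the annotated start and are read 5′ to 3′ on the strand of the gene. Capitals mark the GC box (GGGCGG, an Sp1 motif), the TATA motif (TATAA) and the NF-kB decamer, each on either strand, and GC boxes that overlap were each counted. The motifs were chosen after the sequences had been read. SDC3 is shown from chr1:30908759-30909008 (reverse strand), GPC1 from chr2:240435413-240435662 (forward strand) and SDC4 from chr20:45348425-45348674 (reverse strand). For SDC1 the 131 bases at chr2:20225131-20225261 (reverse strand) are those before its main start that lie clear of another exon of the gene.
SDC1: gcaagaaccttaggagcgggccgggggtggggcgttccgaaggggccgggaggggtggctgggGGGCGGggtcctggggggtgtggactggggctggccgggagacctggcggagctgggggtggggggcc
SDC3: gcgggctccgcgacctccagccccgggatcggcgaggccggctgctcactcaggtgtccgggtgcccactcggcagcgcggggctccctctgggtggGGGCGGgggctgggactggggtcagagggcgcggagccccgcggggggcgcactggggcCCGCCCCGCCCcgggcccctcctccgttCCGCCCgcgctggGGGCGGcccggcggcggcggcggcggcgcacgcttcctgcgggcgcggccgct
GPC1: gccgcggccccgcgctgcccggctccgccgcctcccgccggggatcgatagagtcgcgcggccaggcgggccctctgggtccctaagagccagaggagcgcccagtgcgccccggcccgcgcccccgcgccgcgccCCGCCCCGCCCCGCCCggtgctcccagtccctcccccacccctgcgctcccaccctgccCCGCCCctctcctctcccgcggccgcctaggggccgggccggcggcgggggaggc
SDC4: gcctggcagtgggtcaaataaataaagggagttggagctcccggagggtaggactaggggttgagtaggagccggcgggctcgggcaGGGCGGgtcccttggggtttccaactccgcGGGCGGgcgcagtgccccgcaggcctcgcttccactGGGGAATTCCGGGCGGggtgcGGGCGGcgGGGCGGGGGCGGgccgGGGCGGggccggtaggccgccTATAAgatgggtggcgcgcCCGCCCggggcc

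Over the full 250 bases before each main start, SDC3 had 5 GC boxes, GPC1 had 4 and SDC4 had 8, while SDC1 had 1, which lies in the 131 bases printed. SDC4 alone among these also held a TATA motif and an NF-kB decamer, the latter directly beside a GC box. Of 34796 promoters of the same length, 42.6% held a GC box, 19.0% the TATA motif and 5.21% the NF-kB decamer. The windows of the genes that fell and of SDC4 were all rich in G and C, at 83.6% for SDC3, 84.0% for GPC1, 75.2% for the full SDC1 window and 73.6% for SDC4. These matches are letters in a window and were not tested as sites.

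The encoded proteins show the contrast between ligand and proteoglycans. Residues were counted over the full coding sequence, so the N-terminal segment is included and the values are those of precursors. Midkine has 143 residues in this count, of which 21.7% are lysine or arginine and 7.7% are aspartate or glutamate. This is a surplus of 20 basic residues, and 10 residues are cysteines. Midkine has 0 serine-glycine pairs, the unit to which the chains are attached. The cores, counted in the same way, have 310 residues in SDC1, 201 in SDC2, 442 in SDC3, 198 in SDC4 and 558 in GPC1. They hold 5, 3, 8, 4 and 6 serine-glycine pairs in that order, of which 4, 3, 7, 4 and 6 have an acidic residue within 4 positions. The syndecans have more acidic than basic residues, by between 11 and 23, and GPC1 has equal numbers of both. Among the 4 cores tested, SDC4, the one that was higher, had 4 pairs and the 3 that were lower had 5 to 8. With only the pairs near an acidic residue, SDC4 and SDC1 both had 4, so this count did not set SDC4 apart. These counts describe 4 genes, and a link to the direction of change was not tested.

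Transcript GC content differed among the genes. It was 62.2% for MDK, 59.1% for SDC1, 60.8% for SDC3 and 66.7% for GPC1, the 4 genes that were lower, and 48.8% for SDC4, beside a median of 49.6% over genes tested. With the GC trend of each library removed, the log2 fold changes were -1.84 for MDK, -0.78 for SDC3, -0.34 for GPC1, -0.15 for SDC1 and 0.22 for SDC4. All 4 lower genes came out smaller in size than before, and SDC1 lost its call (edgeR adjusted p = 0.111).

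**Figure D3:**
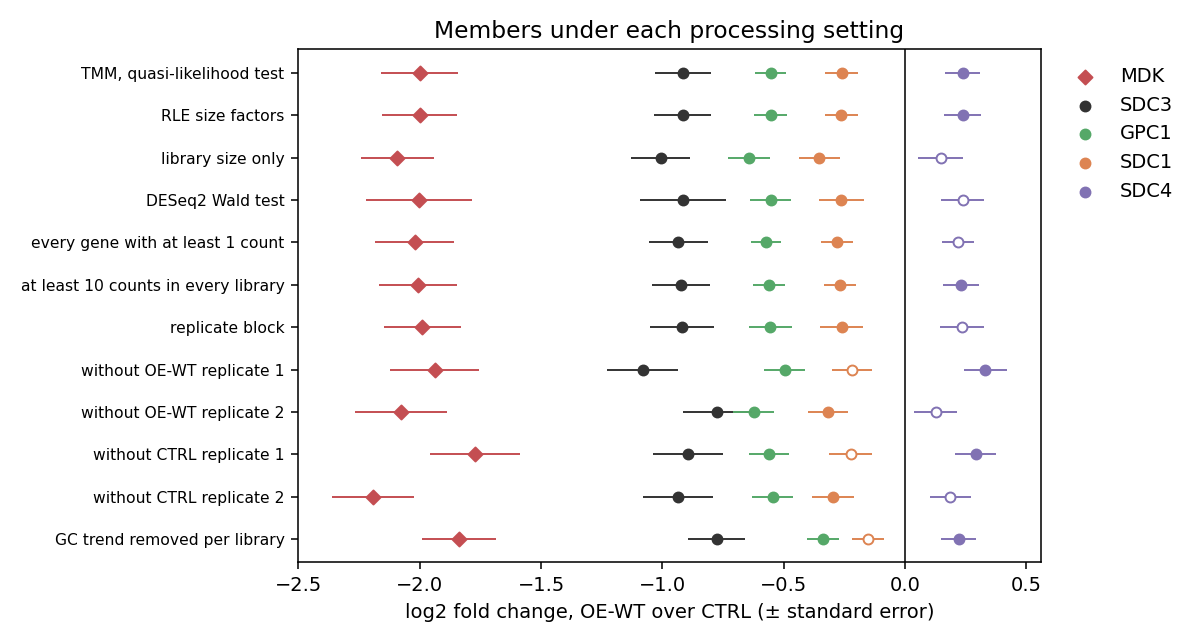
Log2 fold change of OE-WT over CTRL (± standard error) for the 5 measured genes under the reported fit and 11 alternatives. Diamonds mark MDK, which was chosen by its fall and carries no test, filled circles mark an adjusted p below 0.05, and open circles mark the settings in which SDC1 or SDC4 missed it. MDK ranged from -2.19 to -1.77, and no gene changed sign.

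The other receptors described for midkine moved in both directions. Of 14 genes listed, 9 were tested, 4 were lower in edgeR, 1 was higher and 4 were at 0 in every library. The median log2 fold change was -0.11. In DESeq2 2 were lower, and GPC2 received no adjusted p there. Over all genes tested, 11.6% were lower and 9.44% were higher. The 4 lower receptors are among the 8 tested with the N-terminal segment, for which 33.4% of genes were lower. LRP1, an endocytic receptor for midkine, stood at 15.9 and 16.7 CPM in OE-WT against 34.4 and 32.7 CPM in CTRL (log2 fold change -1.04, standard error 0.106, edgeR adjusted p = 4.9e-07). GPC2, a glypican that binds midkine in neural tissue, was scarce throughout, with 12 and 11 counts in OE-WT against 50 and 48 in CTRL. Scaled, GPC2 stood at 1.21 and 1.08 CPM against 3.89 and 3.90 CPM (-1.76, standard error 0.306). The receptor phosphatase PTPRS fell by 0.95 on the log2 scale and NOTCH2, named here after its values were seen, by 0.29. PTPRS lost its call in DESeq2 and without OE-WT replicate 2 (-0.79) or CTRL replicate 1 (-0.75). NCL (nucleolin), an RNA-binding protein of the nucleolus that also binds midkine at the cell surface, rose from 184.1 and 239.2 CPM in CTRL to 350.3 and 301.8 CPM in OE-WT (0.62, standard error 0.092, edgeR adjusted p = 5.0e-05). LRP1 and NCL thus lay on opposite sides, with no overlap between groups in either.

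Among 15 other cell surface and matrix proteoglycans that can carry heparan sulfate, 8 were tested, 6 were lower and 0 were higher in edgeR at an adjusted p below 0.05, with a median of -0.67. HSPG2 (perlecan), a basement membrane proteoglycan, stood at 81.3 and 82.3 CPM in OE-WT against 225 and 203 CPM in CTRL (-1.39, standard error 0.071, edgeR adjusted p = 2.9e-11). COL18A1, the collagen that yields endostatin, fell by 0.91 on the log2 scale. CD44, a hyaluronan receptor with heparan sulfate-bearing isoforms, stood at 75.7 and 90.6 CPM against 155.5 and 135.2 CPM (-0.81, standard error 0.084). GPC2 belongs to this list as well. Every tested gene of the list has the N-terminal segment, for which 33.4% of genes were lower, beside 11.6% over all genes tested.

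The enzymes that build the chains were mixed. Of 14 linker and polymerization genes, 13 were tested, 6 were lower and 1 was higher, with a median of -0.29. Over all genes tested, 11.6% were lower and 9.44% were higher. The 6 lower genes are among the 12 tested with the N-terminal segment, for which 33.4% of genes were lower. XYLT2 and XYLT1, which start the chain by adding xylose to serine, were lower, with log2 fold changes of -0.70 and -1.006 (edgeR adjusted p = 1.0e-05 and 0.0127). XYLT1 lost its call in DESeq2 (-1.008) and without OE-WT replicate 2 (-0.86) or CTRL replicate 1 (-0.81). EXT2 and EXT1 form the polymerase together. EXT2 stood at 173.1 and 177.2 CPM in OE-WT against 257.8 and 238.7 CPM in CTRL (-0.50, standard error 0.066, edgeR adjusted p = 1.3e-05). EXT1 stood at 57.2 and 56.2 CPM against 53.2 and 51.7 CPM and did not pass the test (0.11, standard error 0.076, edgeR adjusted p = 0.319). B4GALT7, a linker galactosyltransferase, fell by 0.45. UGDH, which makes the UDP-glucuronate used in the chain and is named here after its values were seen, was the one that rose (0.33, edgeR adjusted p = 0.0021).

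Of 21 genes for sulfation and epimerization, 11 were tested, 3 were lower and 0 were higher in edgeR, and the median was -0.12. Over all genes tested, 11.6% were lower and 9.44% were higher. The 3 lower calls fell among the 6 tested genes with the N-terminal segment, for which 33.4% of genes were lower. These calls rested on single libraries, since 0 were lower without OE-WT replicate 1, 0 without CTRL replicate 1 and 0 in DESeq2, and 1 was lower with the GC trend removed. Without OE-WT replicate 2 or CTRL replicate 2, 1 was higher. The 3 were GLCE, the glucuronate epimerase (-0.58), HS6ST1, a 6-O-sulfotransferase (-0.39), and NDST1, the first sulfating enzyme (-0.30). NDST1 stood at 30.5 and 37.4 CPM in OE-WT against 43.4 and 40.1 CPM in CTRL, a narrow gap (edgeR adjusted p = 0.0357). Of 13 genes for editing and breakdown, 11 were tested, 7 were lower and 0 were higher in edgeR, with a median of -0.48. The lower genes were 5 of the 9 tested with the segment and the 2 tested without it. The lysosomal hydrolases GUSB, GLB1 and NAGLU were lower, with log2 fold changes of -0.67, -0.54 and -0.51. SULF2, an extracellular sulfatase, was sparse at 19 and 15 counts against 36 and 42 (-0.87, edgeR adjusted p = 0.0444), and its call was lost without any 1 of the 4 libraries (-1.065 to -0.70). SULF1 was at 0. HPSE (heparanase), which cuts the chains, stood at 33.2 and 37.3 CPM in OE-WT against 41.8 and 43.8 CPM in CTRL (-0.28, edgeR adjusted p = 0.0288). HPSE lost its call in DESeq2, with every gene of at least 1 count (-0.30) and without OE-WT replicate 1 (-0.20) or CTRL replicate 2 (-0.25).

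All 10 genes listed as cytoplasmic partners of syndecans were tested, 1 was lower, 1 was higher and the median was 0.18. EZR (ezrin), a linker to actin, fell by 0.32 on the log2 scale. SYNJ2BP, a PDZ protein whose place as a syndecan partner was not checked, rose by 0.61. The call of SYNJ2BP was lost without OE-WT replicate 1 (0.50) and in DESeq2. SDCBP (syntenin), the PDZ adaptor of syndecan tails, stood at 127.6 and 130.0 CPM in OE-WT against 109.7 and 121.7 CPM in CTRL and did not pass the test (0.16, edgeR adjusted p = 0.12). None of the 10 has the N-terminal segment. Over all genes tested, 11.6% were lower and 9.44% were higher. Of the 8 genes for shedding, 6 were tested, 3 were lower (5 with library size as the only scaling) and 0 were higher in edgeR. The lower genes were 2 of the 4 tested with the segment, for which 33.4% of genes were lower, and 1 of the 2 without it. MMP14, a membrane protease that cleaves SDC1, stood at 14.9 and 15.5 CPM against 50.1 and 45.5 CPM (-1.65, standard error 0.102, edgeR adjusted p = 4.1e-10). TIMP3, an inhibitor of such proteases, stood at 10.5 and 11.01 CPM against 27.2 and 27.6 CPM (-1.35, standard error 0.121), so a protease and an inhibitor fell together. NOTUM is a carboxylesterase that inactivates Wnt proteins, and it was listed for a release of glypicans that has been proposed but is disputed. NOTUM fell by 1.03 and was sparse, at 14 and 9 counts in OE-WT against 31 and 28 in CTRL. Its call was kept in 4 of the 9 alternatives that gave a value. The losses included every gene of at least 1 count (-1.046) and the fits without OE-WT replicate 2 (-0.74), CTRL replicate 1 (-0.98) or CTRL replicate 2 (-1.067).

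Among 17 other heparin-binding growth factors, 12 were tested, 2 were lower, 2 were higher and the median was -0.03. Over all genes tested, 11.6% were lower and 9.44% were higher. The 2 lower genes are among the 8 tested with the N-terminal segment, for which 33.4% of genes were lower. PDGFA and AREG were the lower ones (-0.75 and -0.23), and FGF2 and HDGF the higher ones (0.78 and 0.19). None of these 4 calls held throughout: in DESeq2 and without CTRL replicate 1, 0 genes of the list were called in either direction. Without OE-WT replicate 1, 0 were lower and 1 was higher, and without OE-WT replicate 2, 0 were higher. With every gene of at least 1 count 0 were higher and 1 was lower. Without CTRL replicate 2, under library size alone and under the replicate block, 1 was higher. Over all lists together, without the 6 genes, 79 of 112 were tested, 31 were lower and 5 were higher, with a median of -0.19. Among these, 27 of the 54 with the N-terminal segment were lower, and 4 of the 25 without it. Of all genes tested with the segment, 33.4% were lower, beside 11.6% over all genes. The lists were drawn up with earlier results known, so nothing is read from these counts.

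**Figure D4:**
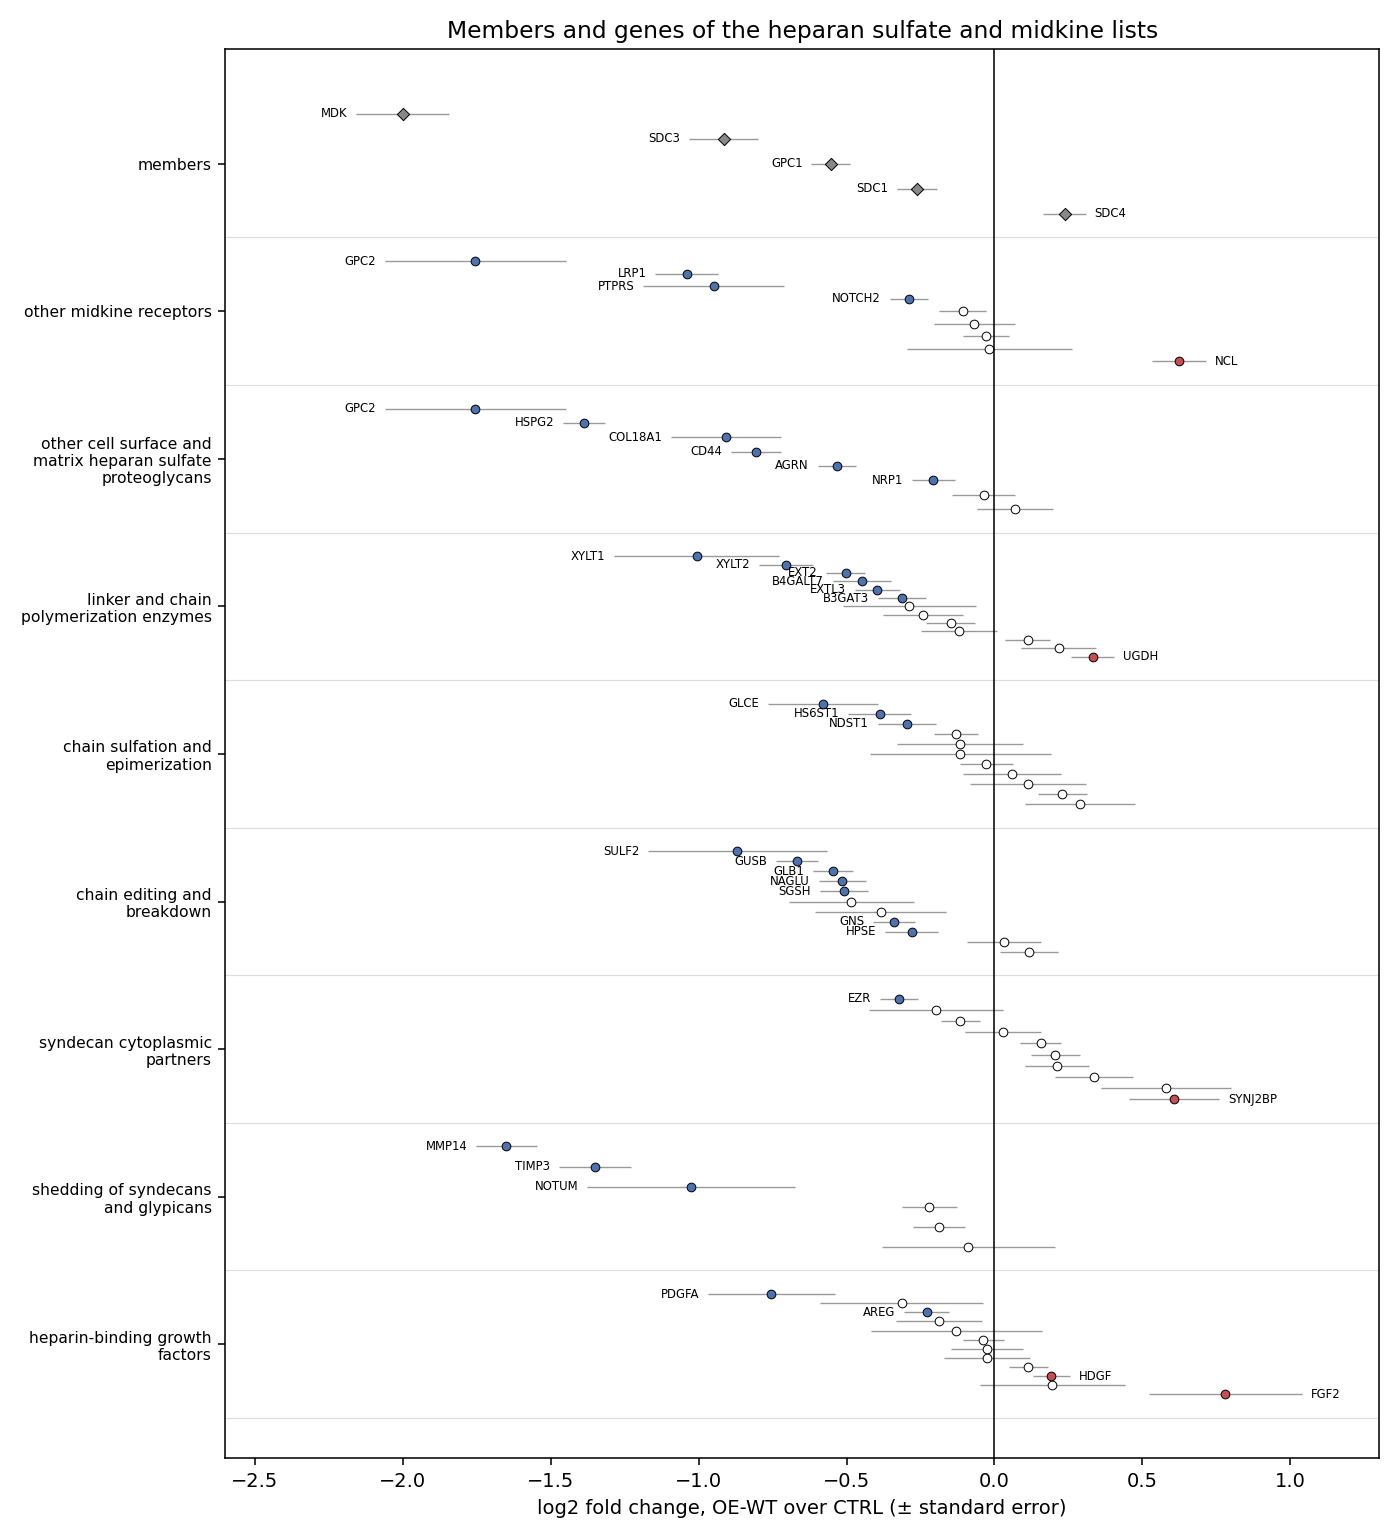
Log2 fold change of OE-WT over CTRL (± standard error, linear axis) for the 5 measured genes (grey diamonds, no test marked) and for the tested genes of each list. Blue points were lower and red points higher at an adjusted p below 0.05, open points did not pass. Lower calls lie in all the lists shown, and GPC2 stands in both of the lists it belongs to.

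The nearest tested genes on either side of MDK did not share the size of its fall, by which MDK was chosen. DGKZ, a diacylglycerol kinase gene 201 bases away, stood at -0.21 on the log2 scale of change (standard error 0.072, edgeR adjusted p = 0.0366), and its call was lost without any 1 of the 4 libraries (-0.24 to -0.20) and with the GC trend removed (-0.015). The next tested gene on that side, PHF21A, which encodes a chromatin protein, stood at -0.47 (standard error 0.213) and did not pass the test. On the other side AMBRA1, an autophagy regulator, stood at 0.18 (standard error 0.097) and HARBI1 at 0.03 (standard error 0.167), and neither passed the test. Of the 24 nearest tested neighbours of the 6 genes, 7 were lower and 3 were higher. Over all genes tested, 11.6% were lower and 9.44% were higher. The protein class of the neighbours was not compared, and nothing is read from this count. CHRM4, on the opposite strand, shares 49 bases with MDK and had 0 and 1 counts in OE-WT against 12 and 9 in CTRL. CHRM4 thus also stood lower in both OE-WT libraries, but it was not among the genes tested and its counts were small beside those of MDK.

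Of 10214 genes with a mean of at least 50 counts, REG4 had the profile over the 4 libraries most like that of MDK, by Euclidean distance of centred log2 CPM (0.206). REG4, a secreted lectin of the gut, stood at 3.22 and 3.15 CPM in OE-WT against 13.3 and 9.82 CPM in CTRL. As for MDK, CTRL replicate 1 was its highest library. STOM, a membrane scaffold protein, followed at a distance of 0.313, then NPTX2 at 0.334, COCH at 0.378 and MMP14 at 0.381. With 2 libraries per group, this distance largely follows the size of the fall, by which MDK was chosen. Other genes with large falls therefore come out near. The likeness rests on 4 libraries and is given as a description.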

How the data were processed

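RNA sequencing was analysed for 2 OE-WT and 2 CTRL libraries of DLD1 cells, each run on 2 lanes that the table holds as 1 column. The authors deposited raw counts per gene, whole numbers that were not normalized. The labels describe selection of poly(A) RNA and strand-specific libraries, whereas the study's methods describe removal of rRNA. The submitters' processing notes name HISAT2 2.2.1, featureCounts 2.0.0 and DESeq2 1.34.0 and the build GRCh38, whereas the methods name HISAT2 and HTSeq. The annotation release and the strand setting of the counting are not given in the sources used here. The methods speak of more biological replicates than the labelled libraries, and p values measure the spread between these libraries, which may be technical.

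Libraries totalled 10460284 and 10327498 counts in OE-WT and 12379671 and 12063433 counts in CTRL. A count of 0 allows 3 counts, or 0.302, 0.295, 0.233 and 0.244 CPM in that order, and such limits cover counting error only, since reads without molecular identifiers are not independent molecules. Counts were fitted in edgeR 4.0.16 (R 4.3.3) with the default filter by group at a minimum count of 10, TMM scaling and the quasi-likelihood test, and p values were adjusted by Benjamini-Hochberg over 14133 genes. Calls needed an adjusted p below 0.05. The test was first tried on simulated data. Levels per kb used the union of annotated exons. GENCODE release 44 (GRCh38) gave coordinates, lengths, GC content and proteins and held 57532 of the 58302 identifiers. A protein counted as having a hydrophobic segment when 11 neighbouring residues among its first 40 averaged 2 or more on the Kyte-Doolittle scale.

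The genes and lists were chosen with earlier results of these data known. Genes named beyond the set were up to 4 per list with the largest change at an adjusted p below 0.05, a few fixed enzymes and receptors, the neighbours of MDK and the 5 profiles nearest to it. Exceptions are stated where they are named. Alternatives were other scalings, DESeq2 1.42.0, other count filters, the replicate number as a block, each library left out, removal of a GC trend per library, and the longest transcript as length. Samples with the same replicate number did not deviate together (correlation -0.0681), so the numbers were not treated as pairs.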

Additional observations from a re-analysis of the deposited data

How the results depend on the processing

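MDK kept its direction in all 11 alternatives, with log2 fold changes from -2.19 to -1.77. SDC3 and GPC1 kept their direction and an edgeR or DESeq2 adjusted p below 0.05 in the same 11, with log2 fold changes from -1.08 to -0.77 and from -0.64 to -0.34. SDC1 kept its call in 8 of 11 and lost it when a GC trend was removed (-0.15). With single libraries left out, SDC1 ranged from -0.32 to -0.22 and SDC4 from 0.13 to 0.33, and SDC1 lost its call without OE-WT replicate 1 or CTRL replicate 1. SDC4 kept its call in 5 of 11 and lost it with library size only (0.15), in DESeq2 (0.24), with every gene of at least 1 count (0.22), under the replicate block (0.23) and without OE-WT replicate 2 or CTRL replicate 2. The count of the 6 genes called higher was then 0, and ranged from 0 to 1 with single libraries left out. The cause of these losses was not tested.

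Genes of all lists called higher numbered 5 as reported, 2 in DESeq2, 3 with every gene of at least 1 count, and 3 to 5 with single libraries left out (3 without OE-WT replicate 1 or CTRL replicate 1). Those called lower numbered 31 as reported and 18 in DESeq2, and 21 to 29 with single libraries left out. Over all genes, 1334 were higher as reported, against 733 with library size only, 522 in DESeq2, 844 with every gene of at least 1 count, and 780 to 1209 with single libraries left out, where OE-WT replicate 1 gave 817 and CTRL replicate 1 gave 780. The 1642 lower genes became 855 in DESeq2. Higher calls made up 44.8% of all calls as reported and 23.0% with library size only, which moved the median by -0.09 on the log2 scale. The replicate block left 1145 higher and 1513 lower genes, and samples sharing a number did not deviate together, so the block is no pairing. Among the 5 measured genes and the other genes named with a fold change, HARBI1 alone changed sign (-0.058 with library size only, and -0.063 to 0.139 with single libraries left out), and it passed no test. Signs of other genes were not compared. Calls of GLCE, HS6ST1, NDST1, HPSE, SULF2, NOTUM, PTPRS, XYLT1, SYNJ2BP, DGKZ and the 4 growth factors were each lost in at least 2 alternatives. With 2 libraries per group, and with 67 to 416 counts behind MDK and 19 or fewer behind SULF2 in OE-WT, small differences in scarce genes could not be resolved.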
